A study of Mus musculus with 34 samples.

Results

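Transcript levels of 10 subunits of the CCR4-NOT deadenylase complex were examined in hematopoietic stem cells (HSCs) of Ythdf2 CTL and Ythdf2 CKO mice. The subunits were Cnot1, Cnot2, Cnot3, Cnot4, Cnot6, Cnot6l, Cnot7, Cnot8, Cnot10 and Cnot11, which were taken by gene name from the 13108 gene rows of the count table. All 10 passed the filter on low counts in every comparison. Each library was made by SMART-Seq2, which amplifies full-length cDNA, from polyA RNA of 100 sorted HSCs (LSK CD48-CD150+), and 2 libraries were made per mouse. The question was which transcripts differ when the mRNA reader YTHDF2 is missing from HSCs of young mice and of mice aged 1 yr.

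All mice were C57BL/6 and carried the floxed Ythdf2 allele, which has GFP placed after the start codon and loxP sites around exon 2. Ythdf2 CKO mice (Ythdf2 fl/fl;Vav-iCre) also carried Vav-iCre, which is active across the hematopoietic system, and Ythdf2 CTL mice (Ythdf2 fl/fl) had no Cre. The 4 groups were 4 young Ythdf2 CTL mice, 4 young Ythdf2 CKO mice, 4 aged Ythdf2 CTL mice and 5 aged Ythdf2 CKO mice. Young mice were 8 to 12 wk old. Vav-iCre acts before adult life and in all blood lineages, so the deletion is neither induced in the adult nor limited to HSCs.

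CCR4-NOT is the main cytoplasmic deadenylase of animal cells. It shortens the poly(A) tail of mRNAs, which is followed by decapping and decay, and it is brought to its targets by RNA-binding proteins. YTHDF2 is one of these: it binds m6A-modified mRNAs and contacts the scaffold subunit CNOT1. Nucleases of different families share the complex, a CAF1-type enzyme encoded by Cnot7 or Cnot8 and a CCR4-type enzyme encoded by Cnot6 or Cnot6l, so that a complex holds either paralog of a pair.

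Counts were summed over both libraries of each mouse and are given as CPM, counts scaled to a common library size for all 17 mice. Library B of the aged Ythdf2 CTL mouse 99 held only 187034 counts and was not used, a choice the submitters also made. The other 33 libraries had between 1859784 and 7784627. Total counts per mouse ranged from 2218618 to 10125624. A member had between 106 and 2421 counts in a mouse, so that none was near the limit of detection. In samples of sorted cells, fewer cells of a kind and less RNA per cell cannot be told apart. HSC markers such as Kit, Ly6a, Slamf1, Procr, Mecom and Hlf were detected. The summed level of 11 HSC markers was between 1737 and 2119 CPM in young Ythdf2 CTL and between 2226 and 2779 CPM in young Ythdf2 CKO mice, with no overlap, and ranged from 1724 to 3267 CPM in aged Ythdf2 CTL and from 2533 to 3226 CPM in aged Ythdf2 CKO mice. Ly6a, which encodes the Sca-1 antigen used in the LSK sort, was the 1 of them called in young mice (1.20 ± 0.19, log2 fold change CKO over CTL with SE, edgeR adjusted p = 0.0201). In aged mice 0 were called. The mean of Ly6a was 280 CPM in young Ythdf2 CTL and 643 CPM in young Ythdf2 CKO mice, and that of Mecom was 72.8 and 52.7 CPM. Of the 11 HSC markers, 6 had a positive log2 fold change in young mice, where 49.9% of all genes did. Their median was 0.02, so the summed level does not stand for the list as a whole. Of 7 T cell markers only Cd4 was among the gene rows, at no more than 3.11 CPM in a mouse. The B cell markers Cd79a and Ms4a1 were at 0 in both young groups. Cd79b was between 78.6 and 88.9 CPM in young Ythdf2 CTL and between 89.8 and 152 CPM in young Ythdf2 CKO mice. These groups did not overlap, a pattern that 2.68% of all genes showed with Ythdf2 CKO above. Cd79b was not called by edgeR between genotypes at either age. Summed myeloid markers were between 569 and 1262 CPM and summed erythroid markers between 48.8 and 95 CPM in a mouse. Of 6 myeloid markers tested by edgeR, 0 were called between genotypes at either age. At an unadjusted p below 0.05, 1 was higher and 0 were lower in young Ythdf2 CKO mice, where 7.06% of all genes passed in either direction. In aged mice 1 was higher and 1 was lower, where 10.1% of all genes passed. The summed level of 10 megakaryocyte and platelet markers was between 610.4 and 996 CPM in young Ythdf2 CTL mice and between 1196 and 3402 CPM in young Ythdf2 CKO mice, with no overlap. In aged mice the ranges were 678 to 994 CPM in Ythdf2 CTL and 935 to 2839 CPM in Ythdf2 CKO mice, which overlapped. By edgeR 1 of the 10 was called in young mice, the platelet chemokine gene Pf4 (1.80 ± 0.34, adjusted p = 0.0488), and 0 in aged mice. The mean of Pf4 was 440 CPM in young Ythdf2 CTL and 1529 CPM in young Ythdf2 CKO mice. Gp9 (84.5 and 61.8 CPM) and Gp1ba (27.4 and 23.1 CPM) had lower means in young Ythdf2 CKO mice. At an unadjusted p below 0.05 by edgeR, 6 of the 10 were higher and 1 was lower in young mice, where 7.06% of all genes passed in either direction. Without the aged mice labelled CTL 124 and CKO 121, 3 were called in aged mice, Pf4, Itga2b and Selp, all higher in Ythdf2 CKO mice. The young calls of Ly6a and Pf4 were both lost without young CTL 1 and without young CTL 2, where 0 genes were called. The part of HSC and platelet markers in the values of the subunits was not tested.

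The deleted gene itself did not follow the labels in every aged mouse. In young mice, Ythdf2 stood at 118, 123, 93.4 and 97.2 CPM in Ythdf2 CTL mice 1 to 4 and at 55.6, 57.6, 60.3 and 50.3 CPM in Ythdf2 CKO mice 1 to 4. The groups did not overlap, and the log2 fold change was -0.95 ± 0.17 (SE; edgeR quasi-likelihood test, adjusted p = 0.0406). The fold change kept its direction when any 1 young mouse was left out (-1.01 to -0.87), but the call was lost in 7 of 8 such fits, with adjusted p from 0.0768 to 0.211, and was kept without young CKO 3. It was also lost with the mouse number as a replicate block (adjusted p = 0.128) and with Y-linked genes as a covariate (adjusted p = 0.171). Counts cover the whole gene, so reads from exons outside the floxed one can be part of the level in Ythdf2 CKO mice. Exons were not counted apart, and the source of this level was not tested. In aged mice, Ythdf2 stood at 179, 164, 142 and 70.5 CPM in the mice labelled Ythdf2 CTL 65, 99, 114 and 124, and at 75.8, 87.8, 73.8, 188 and 72.4 CPM in those labelled Ythdf2 CKO 78, 81, 94, 121 and 122. The mouse labelled CTL 124 was lower than every other aged control, and the mouse labelled CKO 121 was the highest of all aged mice. Both were kept under their labels, and the values named as such leave out the pair. With all 9 aged mice the log2 fold change of Ythdf2 was -0.48 ± 0.33 (adjusted p = 0.661), and without the pair it was -1.06 (adjusted p = 0.0212).

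**Figure D1:**
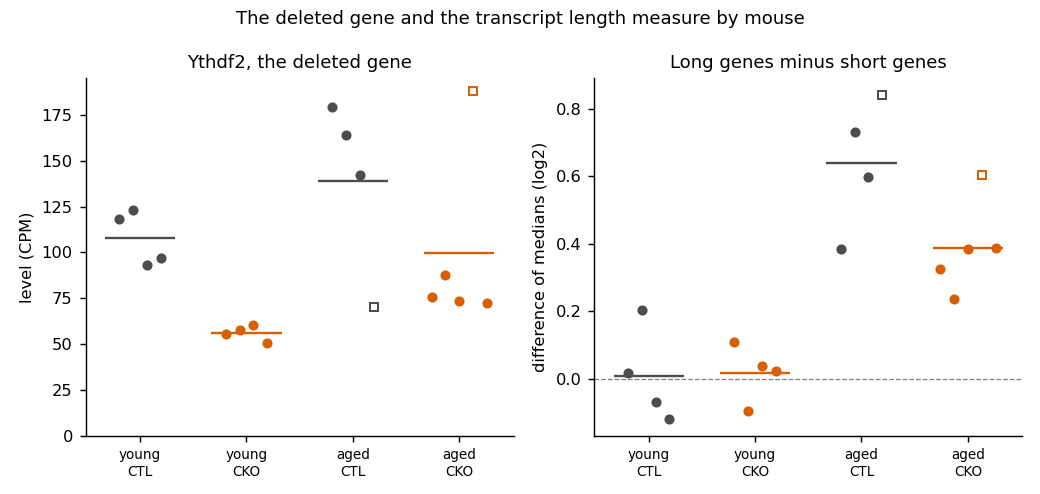
Left, Ythdf2 level in CPM in each mouse, by group. Right, the median deviation (log2 CPM) of the longest genes minus that of the shortest genes in each mouse. Points are mice, bars are group means, and open squares are the mice labelled CTL 124 and CKO 121. CTL 124 has 70.5 CPM of Ythdf2 and CKO 121 has 188, and all 9 aged mice lie above 0.2 on the length measure, where young mice lie between -0.12 and 0.20.

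A second feature of the aged libraries concerned transcript length. Genes were divided by the exon length of GENCODE M21 into 4 bins of equal size (99.6% of 12352 genes had a length). Each mouse was then given the median deviation of the longest bin minus that of the shortest, in log2 CPM from the mean of young Ythdf2 CTL mice. This measure was between -0.12 and 0.20 in young mice and between 0.24 and 0.84 in aged mice, highest in CTL 124. Cnot1, Cnot4, Cnot6 and Cnot6l were in the longest bin, which starts above 4848 bases, and no member was in the shortest. The library names in the sample descriptions also had one prefix for all young and another for all aged libraries, so that age and library set cannot be told apart.

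The genes lie on 8 chromosomes of GRCm38 (GENCODE M21). The scaffold gene Cnot1 is at chr8:95719451-95807464 on the minus strand, with an exon length of 8392 bases. Cnot2 is at chr10:116485161-116581511 (minus) and Cnot3 at chr7:3645268-3661109 (plus). Cnot10 is at chr9:114585878-114640184 (minus), Cnot11 at chr1:39534992-39546889 (plus) and Cnot4 at chr6:35022065-35133724 (minus). Cnot7 is at chr8:40492540-40515847 (minus), Cnot8 at chr11:58104153-58118594 (plus), Cnot6 at chr11:49671503-49712723 (minus) and Cnot6l at chr5:96070333-96164171 (minus). Exons of 4 of them overlap exons of a gene on the other strand: Cnot3 and Leng1 by 382 bases, Cnot7 and Zdhhc2 by 192, Cnot1 and 4930513N10Rik by 132, and Cnot2 and 5330438D12Rik by 59. The use of strand in counting is not given in the sources used here, so reads of these stretches cannot be told apart.

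The paralogs of each nuclease pair are alike in coding sequence, which bears on whether their reads could be mixed. The coding sequences of Cnot7 and Cnot8 were identical at 72.4% of 855 aligned bases, those of Cnot6 and Cnot6l at 73.7% of 1651. The longest identical run was 20 bases in both pairs, and no stretch of 50 bases in any transcript of one gene occurred in its paralog. The most similar stretches of 60 bases, counted from the first base of the start codon (bases 430 to 489 of Cnot7 and Cnot8, and 814 to 873 of Cnot6 and Cnot6l, GENCODE M21 transcripts), are shown to let the differences be seen, with the bases that differ in capitals. Even there the paralogs differed at 8 and at 7 positions.
Cnot7: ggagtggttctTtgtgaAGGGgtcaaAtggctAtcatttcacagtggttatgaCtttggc
Cnot8: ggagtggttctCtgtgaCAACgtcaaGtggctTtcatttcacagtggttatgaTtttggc
Cnot6: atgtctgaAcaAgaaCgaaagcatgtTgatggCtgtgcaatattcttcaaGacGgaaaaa
Cnot6l: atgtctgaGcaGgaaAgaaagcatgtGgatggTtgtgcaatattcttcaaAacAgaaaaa

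Levels of the subunits were first compared with each other per kilobase of exon. In young Ythdf2 CTL mice, Cnot8 was the most abundant subunit, at 97.6 ± 9.23 CPM per kb (SD, n = 4), with no overlap with the next. Cnot2 (46.0 ± 5.66) and Cnot7 (44.0 ± 6.70) followed and overlapped each other. Cnot4 (24.0 ± 2.04) came next, apart from its neighbours on both sides. Cnot3 (16.0 ± 2.43), Cnot10 (15.1 ± 3.68), Cnot1 (12.6 ± 1.55) and Cnot11 (12.3 ± 1.44) formed a run in which neighbours overlapped. The CCR4-type nucleases were lowest, Cnot6l at 5.09 ± 1.61 and Cnot6 at 5.00 ± 0.94 CPM per kb, and these overlapped. The CAF1-type pair was therefore far above the CCR4-type pair in transcript level. In all 4 groups Cnot8 had the highest mean, and Cnot6l had the lowest in the groups other than young Ythdf2 CTL, where Cnot6 did. Annotated exon length is not the length of the transcripts present in HSCs, so the order rests on the annotation.

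**Figure D2:**
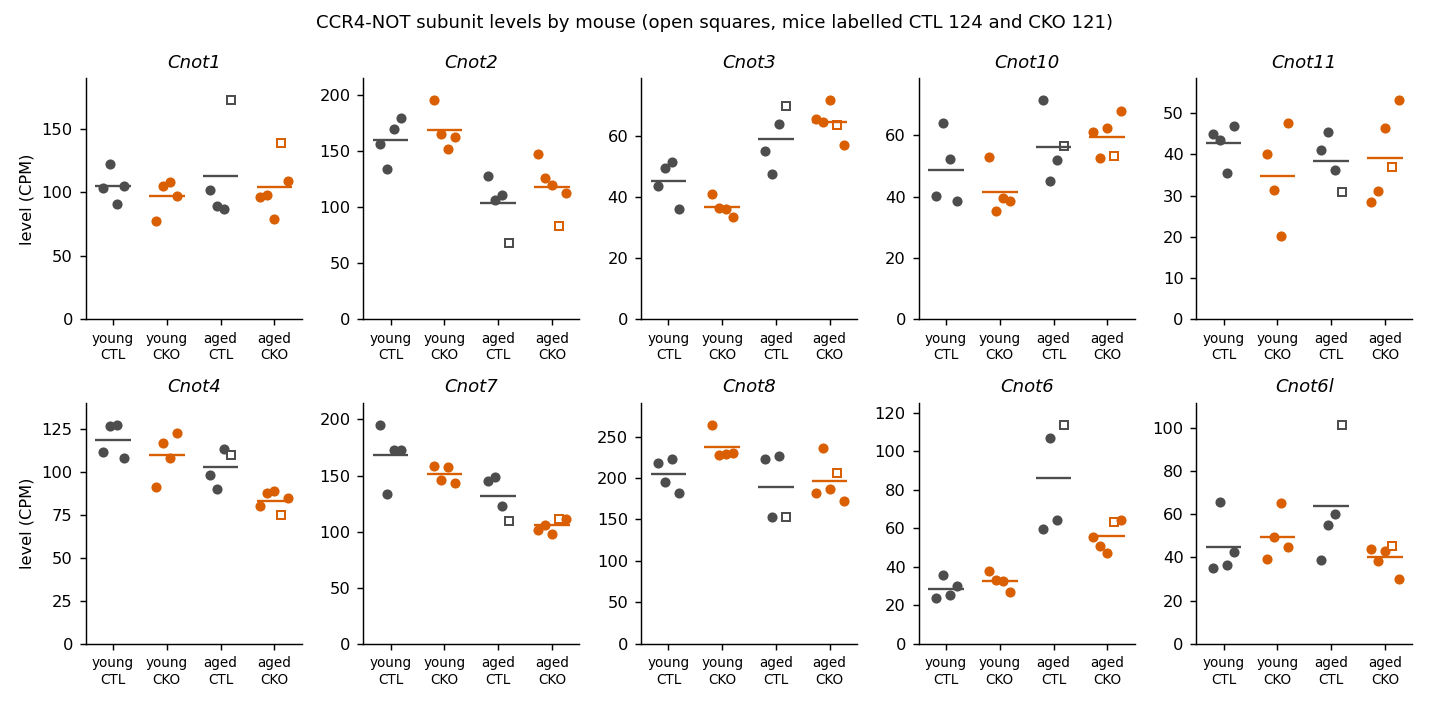
Level in CPM of each subunit in each mouse, by group, on axes that start at 0. Points are mice, bars are group means, and open squares are the mice labelled CTL 124 and CKO 121. Cnot6 lies between 24.0 and 38.0 CPM in young mice and between 47.3 and 114 CPM in aged mice.

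Members varied less between mice than the median gene did. That median covers genes of every level that passed the filter on low counts, and genes of like level were not compared. Within groups, the SD of log2 CPM between mice was between 0.14 (Cnot4) and 0.39 (Cnot6l), where the median over all genes kept was 0.48. Between libraries of one mouse it was between 0.22 (Cnot8) and 0.46 (Cnot6l), against a median of 0.58. By the root mean square difference of log2 CPM deviations over 17 mice, the genes most like Cnot1 were Emc8 (0.15), Tmem234 (0.19) and Bcl7c (0.19), among 12351 genes. The nearest member to Cnot1 was Cnot4, at place 803 (0.35). The members nearest each other were Cnot3 and Cnot10, which differed by 0.24, with Cnot3 at place 8 among the genes most like Cnot10.

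In young mice, no subunit differed between Ythdf2 CKO and Ythdf2 CTL HSCs by the test over all genes. Of the 10 members, 0 were called at an adjusted p below 0.05 by edgeR, where 0.174% of 11526 genes were, and 0 had an unadjusted p below 0.05, where 7.06% of all genes did. DESeq2 called 77 genes and the likelihood ratio test 67, and neither called a member. The log2 fold changes (CKO over CTL) ran from -0.30 for Cnot3 to 0.22 for Cnot8, and 4 of 10 were positive, against 49.9% of all genes. Their median was -0.11, and that of all genes was -0.00.

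The scaffold gene Cnot1, which holds the other subunits and is the surface that YTHDF2 contacts, stood at 103, 122, 90.7 and 105 CPM in young Ythdf2 CTL mice and at 77.7, 105, 108 and 97.2 CPM in young Ythdf2 CKO mice. These values overlapped, with a log2 fold change of -0.11 ± 0.17 (SE) and a 95% interval from -0.48 to 0.25. The 2 genes of the NOT module, whose proteins bind the C-terminal part of CNOT1, also overlapped between genotypes. Cnot2 was between 134 and 180.0 CPM in controls and had 152 to 196 CPM in Ythdf2 CKO mice (log2 fold change 0.08 ± 0.15). Cnot3 was between 36.1 and 51.4 CPM in controls and between 33.4 and 41.1 in Ythdf2 CKO mice (-0.30 ± 0.21, adjusted p = 0.882). Cnot10 and Cnot11, whose proteins form a module at the N-terminal part of CNOT1, had log2 fold changes of -0.23 ± 0.23 and -0.29 ± 0.26. Cnot4, a RING-type E3 ubiquitin ligase that is not a stable subunit in mammals, had -0.11 ± 0.16.

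Among the nucleases, Cnot8 was the one gene whose young groups did not overlap, a pattern that 4.77% of all genes showed in either direction and 2.68% with Ythdf2 CKO above. Cnot8 stood at 218, 195, 223 and 182 CPM in young Ythdf2 CTL mice 1 to 4 and at 264, 228, 229 and 230.5 CPM in young Ythdf2 CKO mice 1 to 4. Every Ythdf2 CKO mouse was thus above every control, but the gap between 223 and 228 CPM was small, and the log2 fold change of 0.22 ± 0.13 had a 95% interval from -0.07 to 0.51 (adjusted p = 0.834). Its paralog Cnot7 was between 134 and 195 CPM in controls and between 143 and 159 in Ythdf2 CKO mice (-0.15 ± 0.15, adjusted p = 0.911). Cnot6 (0.19 ± 0.24) and Cnot6l (0.15 ± 0.25) overlapped between genotypes, with 95% intervals that reached up to 0.70 and 0.68. Y-linked genes were unevenly present in young mice, with a median summed level of 296 CPM in controls and 0 in Ythdf2 CKO mice. With these as a covariate the log2 fold change of Cnot8 was 0.33, with an unadjusted p of 0.0325 and an adjusted p of 0.676 by edgeR.

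**Figure D3:**
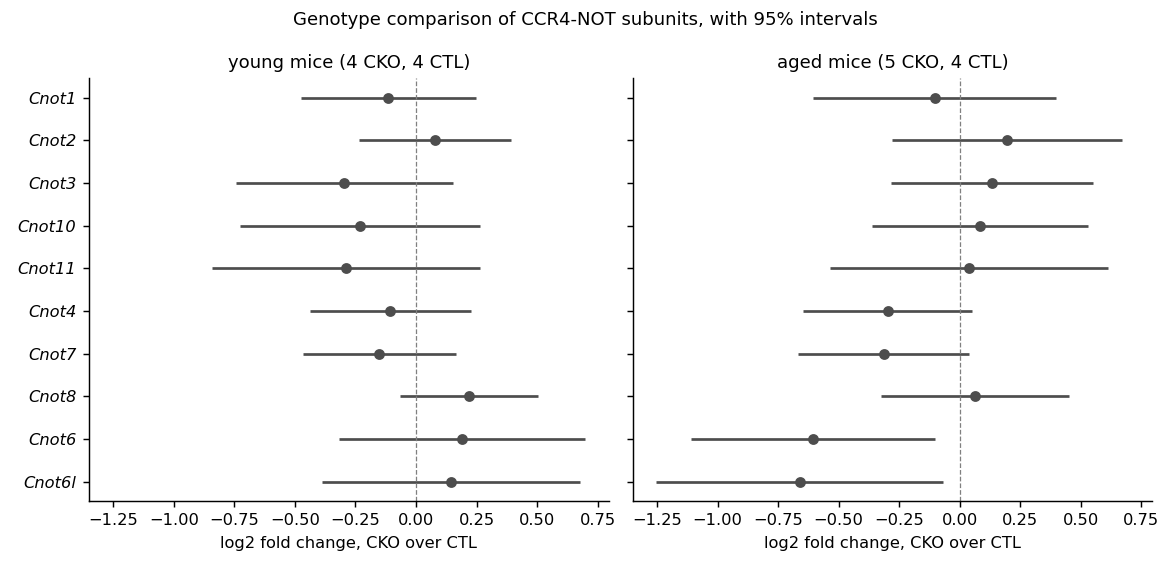
Log2 fold change of each subunit, Ythdf2 CKO over Ythdf2 CTL, in young mice (left) and aged mice (right). Points are estimates of the quasi-likelihood fit and lines are 95% intervals. All 10 intervals in young mice include 0, and in aged mice those of Cnot6 and Cnot6l, from -1.11 to -0.10 and from -1.25 to -0.07, do not.

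In aged mice, the CCR4-type nuclease genes had the lowest log2 fold changes of the 10 members, and no member was called. By edgeR, 0 of 10 members had an adjusted p below 0.05, where 0% of 11961 genes did, and 2 had an unadjusted p below 0.05, where 10.1% of all genes did. Both were lower in Ythdf2 CKO mice, as 5.65% of all genes were at that p. DESeq2 called 104 genes and the likelihood ratio test 76, and neither called a member. The median log2 fold change of the members was -0.03, that of all genes was -0.00, and 5 of 10 were positive, against 49.7% of all genes. One member did not overlap between groups, where 3.48% of all genes did not (1.7% with Ythdf2 CKO below).

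Cnot6 stood at 59.6, 107, 64.5 and 114 CPM in aged Ythdf2 CTL 65, 99, 114 and 124, and at 55.4, 51.0, 47.3, 63.2 and 64.4 CPM in Ythdf2 CKO 78, 81, 94, 121 and 122. The controls fell into a pair near 60 CPM and a pair above 100 CPM, and the lower pair lay within or at the edge of the Ythdf2 CKO range. The log2 fold change was -0.61 ± 0.23 (unadjusted p = 0.0219, adjusted p = 0.417). Cnot6l stood at 39.0, 54.9, 60.4 and 102 CPM in the same controls and at 43.9, 38.3, 43.2, 45.5 and 29.8 CPM in the same Ythdf2 CKO mice. Of these values, that of CTL 124 was the highest and CTL 65 lay inside the Ythdf2 CKO range, and the log2 fold change was -0.66 ± 0.28 (unadjusted p = 0.0312, adjusted p = 0.440).

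Both values moved with the mice and settings that were used, in both directions, and kept their sign in all 19 alternatives. Cnot6 ranged from -0.76 to -0.45 and Cnot6l from -0.86 to -0.35. The lowest adjusted p of Cnot6 was 0.188 by edgeR, without CTL 65. Without the mouse labelled CTL 124 Cnot6 had a log2 fold change of -0.45 (unadjusted p = 0.0704, adjusted p = 0.576) and Cnot6l of -0.36 (unadjusted p = 0.158, adjusted p = 0.689). Without CTL 99 Cnot6 had -0.49 (unadjusted p = 0.0657), and without CKO 94 it had -0.56 (unadjusted p = 0.0514). Cnot6l had -0.64 without CKO 81 (unadjusted p = 0.0564) and -0.57 without CKO 122 (unadjusted p = 0.0739). Without both CTL 124 and CKO 121 the values were -0.49 (adjusted p = 0.464) and -0.40 (adjusted p = 0.587). Both genes have long transcripts, and in the same fit the longest bin of genes had a median log2 fold change of -0.21, with 33.3% of its 2989 genes positive. After the trend with length was removed in each mouse, Cnot6 had -0.47 (unadjusted p = 0.043, adjusted p = 0.510) and Cnot6l -0.35 (unadjusted p = 0.158, adjusted p = 0.684). In that edgeR fit Cnot6 was 1 of 2 members with an unadjusted p below 0.05. The smallest adjusted p of a member was 0.487, so Cnot6 was not the member with the smallest p.

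Cnot4, which is in the same length bin, was the member that did not overlap. It stood at 98.1, 90.0, 113 and 109.7 CPM in aged controls and at 80.1, 87.4, 88.9, 74.6 and 84.7 CPM in aged Ythdf2 CKO mice. The highest Ythdf2 CKO mouse was only just below the lowest control, and the log2 fold change was -0.30 ± 0.16 (adjusted p = 0.558). It was -0.24 (adjusted p = 0.649) without the mice labelled CTL 124 and CKO 121.

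Of the CAF1-type pair, Cnot7 stood at 145, 149, 123 and 109.9 CPM in aged controls and at 101, 106, 97.9, 112 and 111 CPM in aged Ythdf2 CKO mice. CTL 124 was the one control inside the Ythdf2 CKO range, and the log2 fold change was -0.31 ± 0.16 (adjusted p = 0.533). Without CTL 124 and CKO 121 it was -0.42 (unadjusted p = 0.0239, adjusted p = 0.343). Cnot8 was between 153 and 227 CPM in aged controls and had 172 to 236 CPM in aged Ythdf2 CKO mice, with 0.06 ± 0.18, and its sign turned to -0.06 without the same pair of mice.

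The scaffold and the remaining subunits did not pass the test between aged genotypes, with 95% intervals as wide as -0.61 to 0.40 for Cnot1 and -0.53 to 0.61 for Cnot11. Cnot1 stood at 102, 89.1, 86.6 and 173 CPM in aged controls and at 96.5, 97.7, 78.8, 139 and 109 CPM in aged Ythdf2 CKO mice. The mice labelled CTL 124 and CKO 121 were the highest of their groups. The log2 fold change of -0.10 ± 0.23 turned to 0.16 without CTL 124, to 0.04 without both mice and to 0.16 with the length trend removed. Cnot2 (0.19 ± 0.22) and Cnot3 (0.13 ± 0.19) overlapped between genotypes, as did Cnot10 (0.08 ± 0.21) and Cnot11 (0.04 ± 0.27). With the length trend removed Cnot3 was at -0.00, and Cnot10 and Cnot11 at -0.01 and -0.04.

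Whether the genotype difference itself changed with age was tested in the fit over 17 mice. By edgeR, 0 of 10 members were called, where 0% of 12352 genes were, and 2 had an unadjusted p below 0.05, where 4.76% of all genes did. The likelihood ratio test called 4 genes and 0 members. These 2 members were again Cnot6, with a difference in log2 fold change (aged minus young) of -0.80 ± 0.33 (unadjusted p = 0.023, adjusted p = 0.999), and Cnot6l, with -0.82 ± 0.39 (unadjusted p = 0.0459, adjusted p = 0.999). Without the mouse labelled CTL 124 they were -0.62 (unadjusted p = 0.0645) and -0.49 (unadjusted p = 0.175), and without both CTL 124 and CKO 121 they were -0.67 (unadjusted p = 0.0547) and -0.54 (unadjusted p = 0.145), with 0 members and 15 of 12409 genes called. This contrast uses the same aged mice as the comparison above.

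The subunits differed more between aged and young libraries than between genotypes, as did genes in general. In Ythdf2 CTL mice 2 of 10 members were called, where 14.8% of 12352 genes were, and in Ythdf2 CKO mice 3 of 10, where 16.6% were. Cnot6 rose in aged mice of both genotypes. It was between 24.0 and 35.8 CPM in young and between 59.6 and 114 CPM in aged controls, a 3.00-fold higher level with a 95% interval from 2.12 to 4.25 (log2 fold change 1.58 ± 0.24, adjusted p = 0.000493). In Ythdf2 CKO mice it was between 27.0 and 38.0 CPM in young and between 47.3 and 64.4 CPM in aged mice, 1.72-fold higher with an interval from 1.24 to 2.39 (0.79 ± 0.23, adjusted p = 0.0218). Within each genotype no aged mouse overlapped with a young one. That held for 2 of 10 members in controls, where 17.1% of all genes did not overlap, and for 5 of 10 in Ythdf2 CKO mice, where 20.4% did not. The call of Cnot6 in Ythdf2 CKO mice was lost when any of young CKO 2, 3 or 4 or aged CKO 121 or 122 was left out. Its adjusted p was then between 0.0505 and 0.0612 by edgeR. Of 11 HSC markers, 1 was called higher in aged controls, and 2 were called higher and 1 lower in aged Ythdf2 CKO mice. Of 10 megakaryocyte and platelet markers, 2 were called higher in controls and 4 in Ythdf2 CKO mice, and 0 lower. The part of these markers in the age contrasts was not tested.

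**Figure D4:**
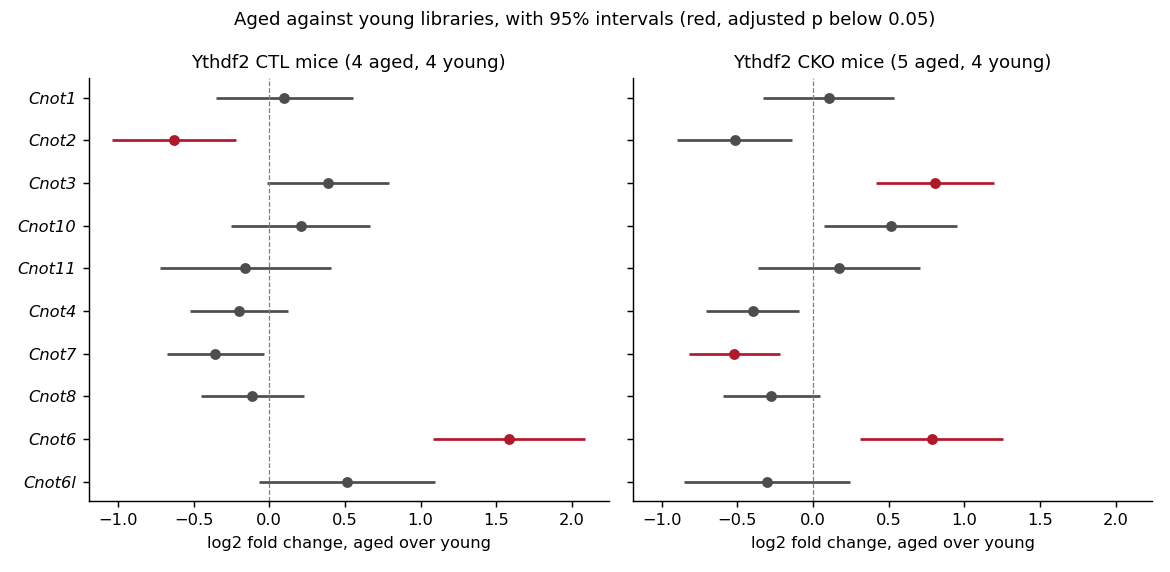
Log2 fold change of each subunit, aged over young, in Ythdf2 CTL mice (left) and Ythdf2 CKO mice (right), with 95% intervals. Red marks an adjusted p below 0.05. Cnot6 is to the right of 0 in both panels, at 1.58 and 0.79, and Cnot2 is to the left, at -0.63 and -0.52.

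Of the NOT module genes, each passed the test in 1 genotype. Cnot3 rose in Ythdf2 CKO mice, from between 33.4 and 41.1 CPM in young to between 57.1 and 71.6 CPM in aged mice, with no overlap (0.81 ± 0.19, adjusted p = 0.00612), and had 0.39 ± 0.20 in controls (adjusted p = 0.187). Cnot2 fell in controls, from between 134 and 180.0 CPM in young to between 68.2 and 128 CPM in aged mice, with no overlap (-0.63 ± 0.20, adjusted p = 0.0352), and had -0.52 ± 0.18 in Ythdf2 CKO mice (adjusted p = 0.0572). The call of Cnot2 was lost without any of young CTL 1, 3 or 4 or aged CTL 99 or 124, with adjusted p between 0.0585 and 0.0993.

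Cnot7 fell in Ythdf2 CKO mice, from between 143 and 159 CPM in young to between 97.9 and 112 CPM in aged mice, with no overlap (-0.52 ± 0.14, adjusted p = 0.0174), and had -0.36 ± 0.15 in controls (adjusted p = 0.122). Its paralog Cnot8 had -0.11 ± 0.16 in controls and -0.27 ± 0.15 in Ythdf2 CKO mice (adjusted p = 0.240). Cnot6l, unlike Cnot6 in these estimates, had 0.51 ± 0.28 in controls and -0.30 ± 0.26 in Ythdf2 CKO mice, and neither passed the test. The scaffold gene Cnot1 had 0.10 ± 0.22 and 0.10 ± 0.21. None of the 10 members was called as different between genotypes in its change with age, as given above. Y-linked genes were also uneven between ages in controls, with a median summed level of 296 CPM in young and 0.093 CPM in aged mice. In both Ythdf2 CKO groups this median was 0. A Y-linked covariate was not used in the age contrasts.

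Long genes as a class were higher in the aged libraries, and these values stand beside the age contrasts. In controls the median log2 fold change was -0.29 in the shortest bin of genes and 0.37 in the longest, and in Ythdf2 CKO mice -0.26 and 0.13. With the length trend removed, Cnot6 had 1.31 in controls (adjusted p = 0.00128) and 0.63 in Ythdf2 CKO mice (adjusted p = 0.0435), and Cnot3 had 0.64 in Ythdf2 CKO mice (adjusted p = 0.0269). Cnot2 was then called in both genotypes, with -0.78 (adjusted p = 0.0115) and -0.74 (adjusted p = 0.00711), as was Cnot7, with -0.53 (adjusted p = 0.0279) and -0.76 (adjusted p = 0.00169). Cnot4 was added in Ythdf2 CKO mice, with -0.59 (adjusted p = 0.00909). That made 3 of 10 members in controls, where 1331 of 12352 genes were called, and 5 of 10 in Ythdf2 CKO mice, where 1861 were. Without the mice labelled CTL 124 and CKO 121, and with no length correction, 2 members were called in controls, where 17.6% of 12409 genes were, and 3 in Ythdf2 CKO mice, where 18.1% were. Cnot6 then had 1.41 (adjusted p = 0.000777) and 0.74 (adjusted p = 0.0269).

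The balance between paralogs was measured within each mouse as a share of the length-scaled level of the pair, which needs no scaling between mice. A trend with length that differs between mice can still enter a share, since the paralogs differ in exon length. These lengths were 3837 bases for Cnot7, 2099 for Cnot8, 5736 for Cnot6 and 8814 for Cnot6l. The part of this trend in the shares was not tested. Cnot8 made up 67.2%, 72.7%, 70.2% and 65.9% of the Cnot7 and Cnot8 level in young Ythdf2 CTL mice 1 to 4, and 75.3%, 74.1%, 72.7% and 74.6% in young Ythdf2 CKO mice 1 to 4. The highest control and the lowest Ythdf2 CKO mouse lay side by side, and the mean difference was 5.16 percentage points (74.2% ± 1.12 against 69.0% ± 3.10, SD, n = 4 each). The exact permutation p (two-sided, mice as units) was 0.0571 (0.127 after adjustment over 4 share comparisons), where the smallest p possible is 0.0286.

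In aged mice the Cnot8 share was 73.7%, 65.3%, 77.1% and 71.8% in Ythdf2 CTL 65, 99, 114 and 124 and 76.7%, 80.3%, 77.7%, 77.2% and 73.9% in Ythdf2 CKO 78, 81, 94, 121 and 122. Only CTL 114 was above the lowest Ythdf2 CKO mouse. The difference was again 5.16 percentage points (77.2% ± 2.26, n = 5, against 72.0% ± 4.97, n = 4), with an exact permutation p of 0.0635 (adjusted 0.127, smallest possible 0.0159). Without CTL 114, the control with the highest share, it was 6.87 points (exact p = 0.0357, the smallest possible with 3 controls), and without CTL 99, the control with the lowest, it was 2.93 points (exact p = 0.143). Without the mice labelled CTL 124 and CKO 121 it was 5.08 points (exact p = 0.229). Neither age passed the test after adjustment.

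The CCR4-type pair had an even balance in young mice. Cnot6l made up 50.0% ± 2.97 of the Cnot6 and Cnot6l level in young Ythdf2 CTL mice and 49.5% ± 6.89 in young Ythdf2 CKO mice (difference -0.50 points, exact permutation p = 0.914). In aged mice its share was 32.4% ± 6.03 in Ythdf2 CTL (n = 4) and 31.8% ± 5.26 in Ythdf2 CKO mice (n = 5; difference -0.54 points, exact permutation p = 0.889). The lowest young mouse had 40.2% and the highest aged mouse 37.9%, so young and aged mice did not overlap.

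**Figure D5:**
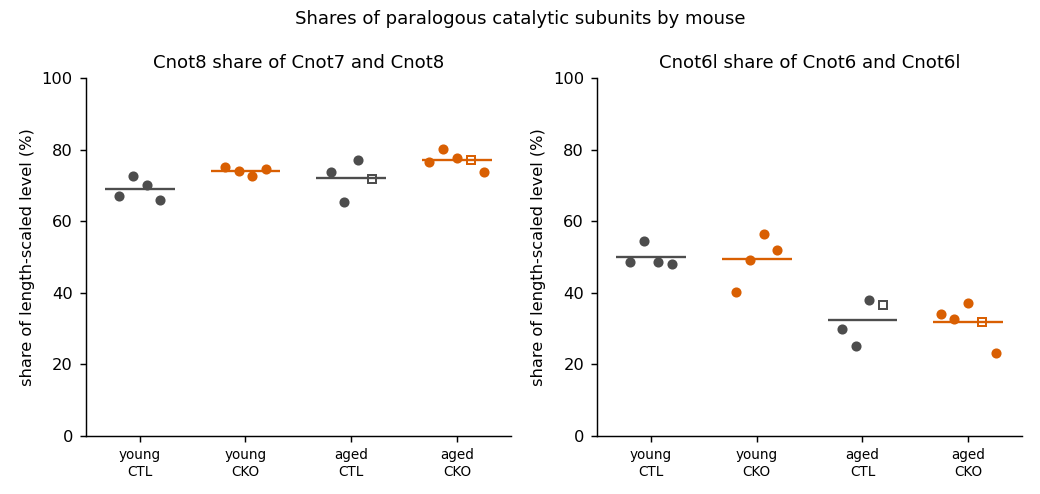
Share (percent of the length-scaled level) of Cnot8 in the Cnot7 and Cnot8 pair (left) and of Cnot6l in the Cnot6 and Cnot6l pair (right) in each mouse. Points are mice, bars are group means, and open squares are the mice labelled CTL 124 and CKO 121. The Cnot8 share lies between 65.3% and 80.3% in all mice, and the Cnot6l share is at least 40.2% in young and at most 37.9% in aged mice.

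As a description, the sum of the 10 members was 967.6 ± 17.9 CPM in young Ythdf2 CTL, 960.3 ± 25.6 in young Ythdf2 CKO, 944 ± 42.3 in aged Ythdf2 CTL and 867 ± 18.1 in aged Ythdf2 CKO mice (SD).

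Other genes around the complex were read from lists of adaptors, other deadenylases, recruiters and downstream decay factors. Among 7 further subunits and BTG/TOB adaptors that were tested, 0 were called between genotypes at either age. Btg2, which links the CAF1-type nucleases to targets, had 0.40 ± 0.32 in young and 1.34 ± 0.47 in aged mice (adjusted p = 0.398). Tnks1bp1, a scaffold-associated protein, had 0.52 ± 0.67 in young and -1.33 ± 0.69 in aged mice (adjusted p = 0.944 and 0.529), and the adaptor Tob2 had -0.68 ± 0.30 in aged mice (adjusted p = 0.470). None of 8 other deadenylases was called by edgeR, and 0 of them had an unadjusted p below 0.05 at either age, where 7.06% of all genes did in young and 10.1% in aged mice. Those with the smallest p were Toe1 (0.29 ± 0.23) and Angel1 (0.60 ± 0.51) in young mice and Pde12 (0.52 ± 0.28) and Angel2 (0.34 ± 0.19) in aged mice. Without the mice labelled CTL 124 and CKO 121 Pde12 had 0.30 and Angel2 0.22.

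Of the RNA-binding proteins that bring CCR4-NOT to mRNAs, 19 were tested in young mice, and Ythdf2 was the only one called, a call that most fits with a mouse left out did not keep, as given above. In aged mice 0 of 20 were called. At an unadjusted p below 0.05, 6 were lower in Ythdf2 CKO mice, where 5.65% of all genes were, and 1 was higher. Without the mice labelled CTL 124 and CKO 121, 19 were tested, 6 were lower at that p, where 6.05% of all genes were, and 0 were higher. These 6 are not the same genes as before: they include Ythdf2 itself, which was called, and no longer Tnrc6a. The argonaute gene Ago1 had the smallest p (-1.14 ± 0.31, adjusted p = 0.305), its aged groups did not overlap, and without that pair it had -0.79 (adjusted p = 0.298). Of 11 poly(A)-binding proteins and partners 0 were called. In aged mice 0 of 11 had a positive log2 fold change, where 49.7% of all genes and 33.3% of the longest bin of genes did. Their median was -0.40, where that of all genes was -0.00 and that of the longest bin was -0.21. Without the pair 3 of 11 were positive and the median was -0.13, where 49.2% of all genes were positive. Pabpc1, the main cytoplasmic poly(A)-binding protein, had -0.34 ± 0.17 in young and -0.96 ± 0.30 in aged mice (adjusted p = 0.715 and 0.342), and Pabpc4 had -0.67 ± 0.31 and -0.75 ± 0.38. Without the pair the aged values were -0.61 for Pabpc1 and -0.20 for Pabpc4. The part of transcript length in the aged counts of recruiters and of poly(A)-binding proteins and partners was not tested.

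Downstream of deadenylation, 0 of 19 decapping and 5′ decay genes and 0 of 15 exosome and SKI genes were called between genotypes at either age. In young mice the decapping genes with the smallest p were Dcp1a (0.67 ± 0.31, adjusted p = 0.701) and Dcps (-0.27 ± 0.14). In aged mice they were the enhancer of decapping Edc3 (0.73 ± 0.23, adjusted p = 0.348) and the helicase Ddx6 (-0.63 ± 0.21, adjusted p = 0.387), which binds CNOT1. Among exosome genes they were Exosc7 (-0.23 ± 0.14) and Exosc9 (-0.15 ± 0.14) in young mice, and Exosc2 (0.47 ± 0.19) and Exosc4 (0.26 ± 0.20) in aged mice, where Exosc4 had 0.08 without the mice labelled CTL 124 and CKO 121. Between aged and young controls, where 14.8% of all genes were called, 6 decapping genes fell and 0 rose, 4 exosome and SKI genes fell and 1 rose, and 5 recruiters rose and 0 fell. In Ythdf2 CKO mice, where 16.6% were called, 4 decapping genes fell and 1 rose, 4 exosome and SKI genes fell and 1 rose, and 5 recruiters rose and 1 fell. In controls 61 genes of the shortest length bin rose and 575 fell, and in the longest bin 289 rose and 74 fell. In Ythdf2 CKO mice 89 rose and 609 fell in the shortest bin, and 158 rose and 139 fell in the longest. The part of transcript length in these counts was not tested.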

How the data were processed

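RNA-seq counts came from 34 libraries of 17 mice. The authors used HISAT2 to align reads to GRCm38 and Rsubread to assign them to genes, and the deposited values are whole-number counts that were not normalized. The annotation, use of strand and rule for shared reads are not given in the sources used here. The submitters treated libraries of a mouse as replicates. Here the libraries were summed per mouse, since libraries of a mouse share the animal. Their counts differed by more than sampling noise (chi-square per degree of freedom at least 9.93). P-values measure the spread between the sums of mice, which includes spread between libraries of a mouse. The main test was edgeR's quasi-likelihood test (edgeR 4.0.16, R 4.3.3) with TMM scaling, after filterByExpr at a minimum count of 10 and a total of 15. P-values were adjusted over all genes by Benjamini-Hochberg and called at 0.05. Separate fits were used for young and aged mice, and one fit over 17 mice gave the age contrasts. SE was derived from the fold change and F. Levels are CPM on 1 TMM scale, and log2 CPM used a prior count of 2. Shares were compared by two-sided exact permutation tests over mice (scipy 1.17.1). Lengths and sequences came from GENCODE M21. The fits were tested on simulated data with 200 changed genes.

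Alternatives were DESeq2 1.42.0 and its size factors, the likelihood ratio test, libraries as replicates, no filter, a replicate block, a Y-linked covariate, leaving out mice, adding library CTL 99 B, and, chosen after seeing the data, the age contrast in Ythdf2 CKO mice and a lowess length trend (span 0.3). All members are named. Of each other list, genes called between genotypes are named, otherwise the pair with the smallest p at each age, and marker lists are given as sums, with the HSC and platelet markers that were called named after their values were seen. A few genes that the rule would name are not reported here but still enter list counts and sums. Members and lists were chosen with earlier results of these data known.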

Additional observations from a re-analysis of the deposited data

Results flagged for a closer look

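In young Ythdf2 CKO mice, Cnot8 of mouse 1 stood at 264 CPM, far from the next mouse at 230.5 CPM and from the other 2, at 228 and 229. In young Ythdf2 CTL mice, the Cnot6l share of the Cnot6 and Cnot6l level was 54.4% in mouse 2, far from the next mouse at 48.7%. These were the 2 groups with a distant mouse among 48 examined, and chance gives such a mouse in about 1 in 20 groups, or 2.4 of 48.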

How the results depend on the processing

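Counts of members called between genotypes stayed at 0 in young and in aged mice, and for the difference between ages, under every alternative run. Over all genes, calls in aged mice went from 0 to 104 by DESeq2, 76 by the likelihood ratio test, 130 with libraries as replicates, 16 without CKO 121 and 40 without both CTL 124 and CKO 121. In young mice they went from 20 to 77, 67 and 47 by the first 3 of these, to 10 with the Y-linked covariate, and to between 0 and 18 with a mouse left out, with 0 without young CTL 1 and without young CTL 2. With mice left out in turn, members called in aged against young controls ranged from 1 to 2 (1 without young CTL 1, 3 or 4 or aged CTL 99 or 124) while all genes called ranged from 896 to 2048, and in Ythdf2 CKO mice from 2 to 5 (5 without aged CTL 124) while all genes called ranged from 1183 to 2655. With the length trend removed the latter was 5.0. The Cnot8 share difference ranged from 4.12 to 6.41 points in young and from 2.93 to 6.87 in aged mice, and the Cnot6l share difference from -2.86 to 2.60 and from -2.98 to 1.63. Without both CTL 124 and CKO 121 the aged Cnot6l share difference was 0.88. Signs of small log2 fold changes turned. In aged mice without both of these mice Cnot1 was at 0.042, Cnot8 at -0.056 and Cnot11 at -0.041. With the length trend removed Cnot1 was at 0.16, Cnot3 at -0.0019, Cnot8 at -0.047, Cnot10 at -0.014 and Cnot11 at -0.036. Cnot8 was at -0.020 with libraries as replicates. With mice left out in turn, Cnot1 in aged mice ranged from -0.23 to 0.16, Cnot8 from -0.041 to 0.15, Cnot10 from -0.018 to 0.21 and Cnot11 from -0.092 to 0.14, and Cnot6l in young mice from -0.012 to 0.39. In young mice Cnot1, Cnot3, Cnot10 and Cnot11 kept their sign over 17 alternatives but moved in size. Cnot1 ranged from -0.23 to -0.02, Cnot3 from -0.39 to -0.13, Cnot10 from -0.37 to -0.01 and Cnot11 from -0.48 to -0.10. The cause of these moves was not tested.

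With the library letter as a replicate block, 0 members were called in young and 0 in aged mice, and Cnot8 in aged mice was at -0.013. With the mouse number as a replicate block in young mice, 0 members and 14 genes were called. Correlations of deviations between same-numbered young mice ran from -0.04 to 0.05, and 2 of 4 numbers were closest to their own. Such values show no clear pairing by mouse number and cannot exclude one. Aged CTL 99 had the fewest counts, 2218618 from 1 library. With 4 or 5 mice a group, intervals of single members spanned a median of 0.81 (log2) in young and 0.92 in aged mice, so that differences within them were not detectable.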
